A study of Mus musculus with 2 samples.

Results

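The 10 genes described here encode the MHC class I pathway of antigen presentation and the immunoproteasome, and they were taken from the expression matrix by symbol, as 10 of its 22597 gene rows. They are the heavy chains H2-K1 and H2-D1, the light chain B2m, the peptide transporter subunits Tap1 and Tap2, the loading factor Tapbp, the immunoproteasome subunits Psmb8, Psmb9 and Psmb10, and the transcriptional regulator Nlrc5. All 10 symbols were found, each in 1 row. Their levels were compared between a Tgfbr2-KO pool and a control pool of donor-derived lung monocytes and macrophages. The Tgfbr2-KO pool came from chimeras given LyzM-Cre Tgfbr2 fl/fl bone marrow and carried hashtag B0303, and the control pool came from chimeras given Tgfbr2 fl/fl marrow and carried hashtag B0301. Tgfbr2 encodes a TGF-beta receptor subunit, and LyzM-Cre acts in the myeloid lineage as a whole, so the deletion it drives is not limited to macrophages. Both pools came from hosts of the IM-DTR strain, CD45.1+CD45.2+ and irradiated, in which diphtheria toxin removes interstitial macrophages. All hosts were given 50 ng of toxin 10 days before sacrifice. The sorted cells were CD45.1-CD45.2+ donor cells without Ly6G or SiglecF, with CD11b, CD64 and low side scatter. Each pool joined the cells of 5 mice that were not tagged singly, so the design has 1 pool per genotype, no replicate and no test. The intervals below are exact 95% intervals that cover counting error only.

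MHC class I molecules show peptides from a cell's own proteins to CD8 T cells. The proteasome cuts proteins into peptides, the TAP transporter carries these into the endoplasmic reticulum, and tapasin, the product of Tapbp, helps to load them onto a heavy chain that is paired with beta-2-microglobulin. Interferon-gamma is known to induce these genes, and in the immunoproteasome the inducible subunits encoded by Psmb8, Psmb9 and Psmb10 take the places of the constitutive ones encoded by Psmb5, Psmb6 and Psmb7. NLRC5 is a transactivator of MHC class I genes, as CIITA is of MHC class II genes.

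Of the 10 genes, 7 lie on chromosome 17 in the mouse MHC region. In GRCm38.p6 the genes for the transporter and for 2 immunoproteasome subunits lie side by side there, with Psmb9 at 34182030 to 34187330, Tap1 at 34187556 to 34197225, Psmb8 at 34198195 to 34201454 and Tap2 at 34204479 to 34216321. B2m lies on chromosome 2 and Psmb10 and Nlrc5 on chromosome 8. RefSeq promoter windows of GRCm38.p6, from 250 bases before to 50 bases after an annotated start, matched 8 of the 10 genes by symbol, all but Tap2 and Nlrc5. The starts of Tap1 and Psmb9 lie 226 bases apart on opposite strands, so that their windows share 275 bases. The windows of 5 genes are shown to let the matches to 3 searched motifs be seen, with 1 of the 2 annotated starts of H2-K1. Capitals mark matches to letters known as the core of the interferon-stimulated response element (GAAANNGAA, or GAANNGAAA, which was added after the promoters were seen), the gamma-activated site (TTCNNNGAA) and the CCAAT box (ATTGG), on either strand.
H2-K1 (chr17:34000298-34000597, minus strand): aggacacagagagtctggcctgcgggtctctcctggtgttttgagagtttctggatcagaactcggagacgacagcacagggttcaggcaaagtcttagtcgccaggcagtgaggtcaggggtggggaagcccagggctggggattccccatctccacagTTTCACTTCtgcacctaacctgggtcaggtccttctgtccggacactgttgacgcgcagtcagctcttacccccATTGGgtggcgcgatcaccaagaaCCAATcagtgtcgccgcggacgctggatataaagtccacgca
H2-D1 (chr17:35262844-35263143, plus strand): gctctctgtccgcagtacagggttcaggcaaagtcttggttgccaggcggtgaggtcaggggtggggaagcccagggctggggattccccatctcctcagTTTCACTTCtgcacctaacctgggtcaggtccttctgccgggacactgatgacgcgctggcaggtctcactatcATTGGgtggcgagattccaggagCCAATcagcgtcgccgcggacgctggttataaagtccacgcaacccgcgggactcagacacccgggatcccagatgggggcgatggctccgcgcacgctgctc
B2m (chr2:122147437-122147736, plus strand): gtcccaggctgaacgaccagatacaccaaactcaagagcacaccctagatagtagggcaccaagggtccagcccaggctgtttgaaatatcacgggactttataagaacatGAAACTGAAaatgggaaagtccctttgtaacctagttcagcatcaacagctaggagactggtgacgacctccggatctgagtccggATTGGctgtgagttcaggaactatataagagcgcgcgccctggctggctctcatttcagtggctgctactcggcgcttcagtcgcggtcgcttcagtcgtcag
Tap1 (chr17:34187306-34187605, plus strand): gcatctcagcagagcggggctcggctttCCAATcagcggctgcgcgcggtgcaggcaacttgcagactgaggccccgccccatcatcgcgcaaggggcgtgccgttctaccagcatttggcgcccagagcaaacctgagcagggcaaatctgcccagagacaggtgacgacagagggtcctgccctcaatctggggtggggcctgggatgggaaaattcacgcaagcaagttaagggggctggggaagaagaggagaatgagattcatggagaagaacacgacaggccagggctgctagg
Psmb8 (chr17:34197945-34198244, plus strand): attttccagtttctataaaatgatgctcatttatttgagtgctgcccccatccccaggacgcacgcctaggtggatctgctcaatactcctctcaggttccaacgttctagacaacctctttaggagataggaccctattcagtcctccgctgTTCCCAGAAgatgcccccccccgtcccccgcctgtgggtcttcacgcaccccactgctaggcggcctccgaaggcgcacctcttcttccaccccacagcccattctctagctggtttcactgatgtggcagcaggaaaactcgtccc
H2-K1 and H2-D1 each hold TTTCACTTC, the second response element core read on the strand opposite to the gene, and a pair of CCAAT boxes. B2m holds GAAACTGAA, a match to the first core, and a CCAAT box. The shared window of Tap1 and Psmb9 holds a CCAAT box, Psmb8 holds TTCCCAGAA, and the window of Tapbp holds CCAAT boxes alone. No searched motif matched in the window of Psmb10, and TGACGTCA, the cyclic AMP response element, matched in none of the 8. Of 32851 RefSeq promoters, 8.56% hold GAAANNGAA, 7.52% GAANNGAAA, 8.30% TTCNNNGAA, 1.79% TGACGTCA and 37.4% ATTGG. A match describes the letters of a window and is no measure of binding.

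The filters left 2674 Tgfbr2-KO cells, with 30729204 UMIs in all and a median of 10277.5, and 1896 control cells, with 16298452 UMIs and a median of 7785. All 10 macrophage core markers were detected, with a summed level of 14197 UMIs per 1000000 gene UMIs (UPM) in the Tgfbr2-KO pool and 16924 UPM in the control pool. Summed markers of other cells stood at 142 and 56.0 UPM for neutrophils, 132 and 73.0 UPM for structural lung cells, 153 and 135 UPM for B or plasma cells, 91.5 and 80.4 UPM for conventional dendritic cells, 6.93 and 1.84 UPM for T or NK cells and 6.18 and 4.85 UPM for alveolar macrophages, in the Tgfbr2-KO pool and in the control pool. In the control pool 3 of the 10 T or NK markers and 1 of the 10 neutrophil markers were at 0, and in the Tgfbr2-KO pool none of either. The neutrophil markers S100a8 and S100a9 are also markers of the classical-monocyte-like gate described below, so their sum is not particular to neutrophils. Class I genes are active in nearly all nucleated cells, and the part of these other cells in the values below was not tested. Tgfbr2 itself stood at 195 UPM in the Tgfbr2-KO pool and 215 UPM in the control pool, and 3′ tags need not lie in the deleted part, so this does not measure the deletion.

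All 10 genes were higher in the Tgfbr2-KO pool than in the control pool, from 1.62-fold for H2-D1 to 5.19-fold for Tap1. The genes of peptide supply, Tap1 and the 3 immunoproteasome subunits, had the largest ratios, while the heavy chains, B2m and Tapbp stood near or under 2-fold. The heavy chains form the peptide-binding part of the molecule. H2-K1 stood at 2401 UPM (2384 to 2419) in the Tgfbr2-KO pool and 1182 UPM (1165 to 1199) in the control pool, a ratio of 2.03 (2.0 to 2.06). H2-D1 stood at 2857 UPM in the Tgfbr2-KO pool and 1765 UPM in the control pool, a ratio of 1.62 (1.60 to 1.64). The genes are close relatives, and the sources used here do not say how reads that fit both were counted. B2m, the light chain shared by all class I molecules, stood at 3674 UPM in the Tgfbr2-KO pool and 2017 UPM in the control pool, a ratio of 1.82 (1.80 to 1.84). In the annotation B2m lies within the span of Patl2, and the sources do not say how reads from the overlap were assigned.

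The transporter subunits pair as 1 molecule but differed in their ratios. Tap1 stood at 168 UPM (164 to 173) in the Tgfbr2-KO pool and 32.4 UPM (29.7 to 35.3) in the control pool, a ratio of 5.19 (4.75 to 5.69) and the largest of the 10. Tap2 stood at 87.2 UPM in the Tgfbr2-KO pool and 35.9 UPM in the control pool, a ratio of 2.43 (2.22 to 2.66). The intervals of these ratios do not overlap. Tapbp, whose product bridges the transporter and the empty class I molecule, stood at 256 UPM in the Tgfbr2-KO pool and 131 UPM in the control pool, a ratio of 1.96 (1.87 to 2.06).

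Each of the 3 inducible proteasome subunits was higher in the Tgfbr2-KO pool. Psmb8, which encodes the subunit with chymotrypsin-like activity, stood at 738 UPM (728 to 747) in the Tgfbr2-KO pool and 236 UPM (229 to 244) in the control pool, a ratio of 3.12 (3.02 to 3.23). Psmb9 stood at 297 UPM in the Tgfbr2-KO pool and 72.8 UPM in the control pool, a ratio of 4.08 (3.84 to 4.34). Psmb10 stood at 289.5 UPM in the Tgfbr2-KO pool and 103 UPM in the control pool, a ratio of 2.82 (2.68 to 2.98). Psmb9 and Tap1, the neighbours that face each other across 226 bases, thus had the largest ratios of the 10. Nlrc5, the regulator, stood at 64.5 UPM (61.7 to 67.4) in the Tgfbr2-KO pool and 24.6 UPM (22.3 to 27.1) in the control pool, a ratio of 2.62 (2.35 to 2.93). Its gene overlaps annotated non-coding RNAs, for which the same limit on read assignment holds.

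**Figure D1:**
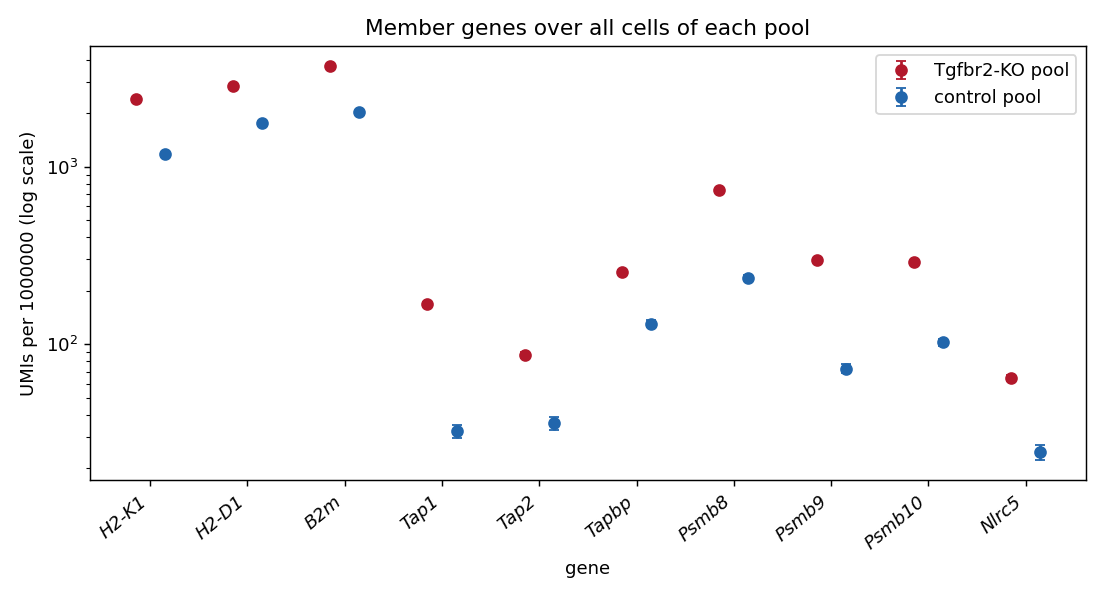
UMIs per 1000000 gene UMIs (log scale) of the 10 member genes over all cells of the Tgfbr2-KO pool (red) and the control pool (blue), with exact 95% Poisson intervals for counting error, many of them smaller than the points. All 10 genes are higher in the Tgfbr2-KO pool, and the gap is widest for Tap1, at 168 UPM in the Tgfbr2-KO pool and 32.4 UPM in the control pool.

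A gene was called higher at a ratio of at least 1.5. With a minimum of 100 UMIs over both pools and 100 UPM in 1 of them, 8 members entered the count and all 8 were called higher, while 11.4% of the 1736 genes tested were. Tap1 and Psmb9 reached this minimum in the Tgfbr2-KO pool only and so had to differ to enter, and Tap2 and Nlrc5 reached it in neither pool. With the minimum of 100 UMIs alone, all 10 were called higher, while 11.9% of 10237 genes were. The median log2 ratio was 1.34 over the 10 members and 0.09 over those 10237 genes. Without the interferon-activated gate described below, the members' median log2 ratio was 1.09. With the control gates weighted by the gates' shares of UMIs in the Tgfbr2-KO pool it was 0.48. Of the 10 members 4, Tap1, Psmb8, Psmb9 and Psmb10, then kept a ratio of at least 1.5, and 6 did not, among them Nlrc5, whose log2 ratio was -0.95. This weighting gives the 8 control cells of the interferon-activated gate 30.4% of the weight, for every member. The share of all genes at 1.5-fold under it is not given.

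The share of cells with at least 1 UMI was compared after each cell had been thinned to 3000 UMIs, which left out 83 Tgfbr2-KO cells and 80 control cells. B2m was found in 99.2% of Tgfbr2-KO cells and 98.5% of control cells, and H2-D1 in 99.3% of Tgfbr2-KO cells and 97.7% of control cells. Heavy and light chains were thus detected in nearly every cell of both pools, and they differed in UMIs per cell. The median cell held 10 UMIs of B2m in the Tgfbr2-KO pool and 6 in the control pool, and 6 of H2-K1 in the Tgfbr2-KO pool and 3 in the control pool. Tap1 was found in 32.1% (30.3 to 33.9) of Tgfbr2-KO cells and 9.64% (8.32 to 11.1) of control cells, or 60.2% of Tgfbr2-KO and 21.8% of control cells without thinning. Psmb9 was found in 46.9% (44.9 to 48.8) of Tgfbr2-KO cells and 18.2% (16.4 to 20.02) of control cells, or 72.7% of Tgfbr2-KO and 39.4% of control cells without thinning. Psmb8 was found in 70.8% and 47.6%, Psmb10 in 45.2% and 25.8%, Tapbp in 46.4% and 32.1%, Tap2 in 19.7% and 10.2% and Nlrc5 in 14.7% and 5.89%, each in the Tgfbr2-KO pool and in the control pool. At this depth a cell without a UMI of Nlrc5 or Tap2 need not lack the transcript. No sorted cell type is known to lack these genes, so free RNA in the droplets could not be read from one. Barcodes with fewer than 100 UMIs held the 10 members at 10691 UPM in sum, against 10833 UPM in the Tgfbr2-KO pool and 5599 UPM in the control pool.

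The members were then compared within gates set by marker genes, none of which is a member, to hold the mix of cells as far as these gates can. The index behind a gate is the sum of its markers' UMIs per 10000 UMIs of a cell, so a gate is a range of a score and not a cell type. The pools differed most in the interferon-activated gate, set among cells with complement C1q by Ly6a, Ly6i, Gbp2 and Iigp1. It held 626 Tgfbr2-KO cells (23.4% of the pool) and 8 control cells (0.422%), and 312 Tgfbr2-KO cells and 22 control cells lay near its threshold of 5, at an index of 2.5 to 10. Of the 10 gates, 4 held at least 50 cells in both pools. Cells with C1q outside the narrower gates were parted by Mrc1, which encodes the mannose receptor CD206, and 332 Tgfbr2-KO cells and 424 control cells lay near that threshold of 2, at an index of 1 to 4. The genes of the interferon index described below still differed within these gates. In Tgfbr2-KO and control cells they summed to 749 and 230 UPM with high Mrc1 and 1155 and 203 UPM with low Mrc1. They summed to 599 and 248 UPM in the Folr2-Lyve1-Cd163 gate and 2577 and 233 UPM in other low-C1q cells. The part of this in the members' ratios was not tested.

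In cells with high Mrc1, 728 from the Tgfbr2-KO pool and 881 from the control pool, 5 of the 10 members were called higher, while 5.33% of 7616 genes were. Tap1 stood at 79.5 UPM (72.9 to 86.5) in the Tgfbr2-KO cells and 30.5 UPM (26.5 to 34.9) in the control cells, a ratio of 2.60 (2.22 to 3.07). Nlrc5 stood at 43.4 UPM in the Tgfbr2-KO cells and 16.5 UPM in the control cells, a ratio of 2.63 (2.11 to 3.30). Psmb9 stood at 141 UPM in the Tgfbr2-KO cells and 69.4 UPM in the control cells, a ratio of 2.03 (1.82 to 2.27). The regulator and the transporter subunit thus differed alike here. Psmb8, at 1.56, and H2-K1, at 1.52, also passed. H2-D1, B2m, Tap2 and Psmb10 had ratios between 1.42 and 1.46 and did not, and neither did Tapbp, at 1.15 (1.05 to 1.26). The count was 3 with the interferon-activated gate opened at an index of 2.5, 9 with it opened at 10, and 3 under trimmed-mean scaling within the gate, with median log2 ratios of 0.50, 0.73 and 0.51, against 0.58. The share of all genes called is not given for these settings here or in the gates below, so such counts have no baseline.

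In cells with low Mrc1, 319 from the Tgfbr2-KO pool and 374 from the control pool, 7 members were called higher, while 6.50% of 5369 genes were. Tap1 stood at 100.4 UPM (89.3 to 112) in the Tgfbr2-KO cells and 27.3 UPM (21.5 to 34.1) in the control cells, a ratio of 3.68 (2.86 to 4.79). Psmb9 had a ratio of 2.45, Nlrc5 of 2.30, Psmb8 of 1.93, Psmb10 of 1.66, H2-K1 of 1.60 and B2m of 1.55. Nlrc5 reached the minimum of 100 UMIs only by the sum, at 93 UMIs in the Tgfbr2-KO cells and 38 in the control cells. Tapbp at 1.43, H2-D1 at 1.36 and Tap2 at 1.31 did not pass. Low-Mrc1 cells thus kept the order seen over all cells at its top, with Tap1 and Psmb9 as the largest ratios. The count was 5 with the interferon-activated gate opened at an index of 2.5, from thinned cells and under trimmed-mean scaling within the gate, with median log2 ratios of 0.61, 0.76 and 0.60, against 0.70.

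In cells of the Folr2-Lyve1-Cd163 gate, whose markers are known from macrophages near blood vessels, 4 members were called higher, while 4.74% of 5532 genes were. The gate held 336 Tgfbr2-KO cells and 245 control cells. Tap1 stood at 63.3 UPM (54.7 to 72.9) in the Tgfbr2-KO cells and 25.7 UPM (19.8 to 32.9) in the control cells, a ratio of 2.46 (1.84 to 3.32). Psmb9 had a ratio of 1.73, and H2-K1 and H2-D1 one of 1.55 each. Tap2, at 41.0 UPM in the Tgfbr2-KO cells and 39.2 UPM in the control cells, and Psmb10, at 110 UPM in the Tgfbr2-KO cells and 94.4 UPM in the control cells, had ratios whose intervals included 1 (0.795 to 1.38 and 0.984 to 1.39). With the interferon-activated gate opened at an index of 2.5 the count was 2.

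In cells with low C1q and neither set of monocyte markers, 127 from the Tgfbr2-KO pool and 93 from the control pool, all 10 members were called higher, while 17.7% of 3625 genes were. Psmb9 stood at 200 UPM in the Tgfbr2-KO cells and 31.5 UPM in the control cells, a ratio of 6.34 (3.95 to 10.8), and Tap1 at 130 UPM in the Tgfbr2-KO cells and 22.8 UPM in the control cells, a ratio of 5.70 (3.26 to 10.9). H2-D1, at 2.21, had its largest ratio of the compared gates here. The gate was led by Sftpc and Ccl21a, and its structural lung markers summed to 1169 UPM in the Tgfbr2-KO cells and 110 UPM in the control cells. Its median cell had 14011 UMIs in the Tgfbr2-KO pool and 3424 in the control pool. The part of these differences in the members' ratios was not tested, and with gates and values from thinned cells the count was 5, at a median log2 ratio of 1.40 against 1.35.

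**Figure D2:**
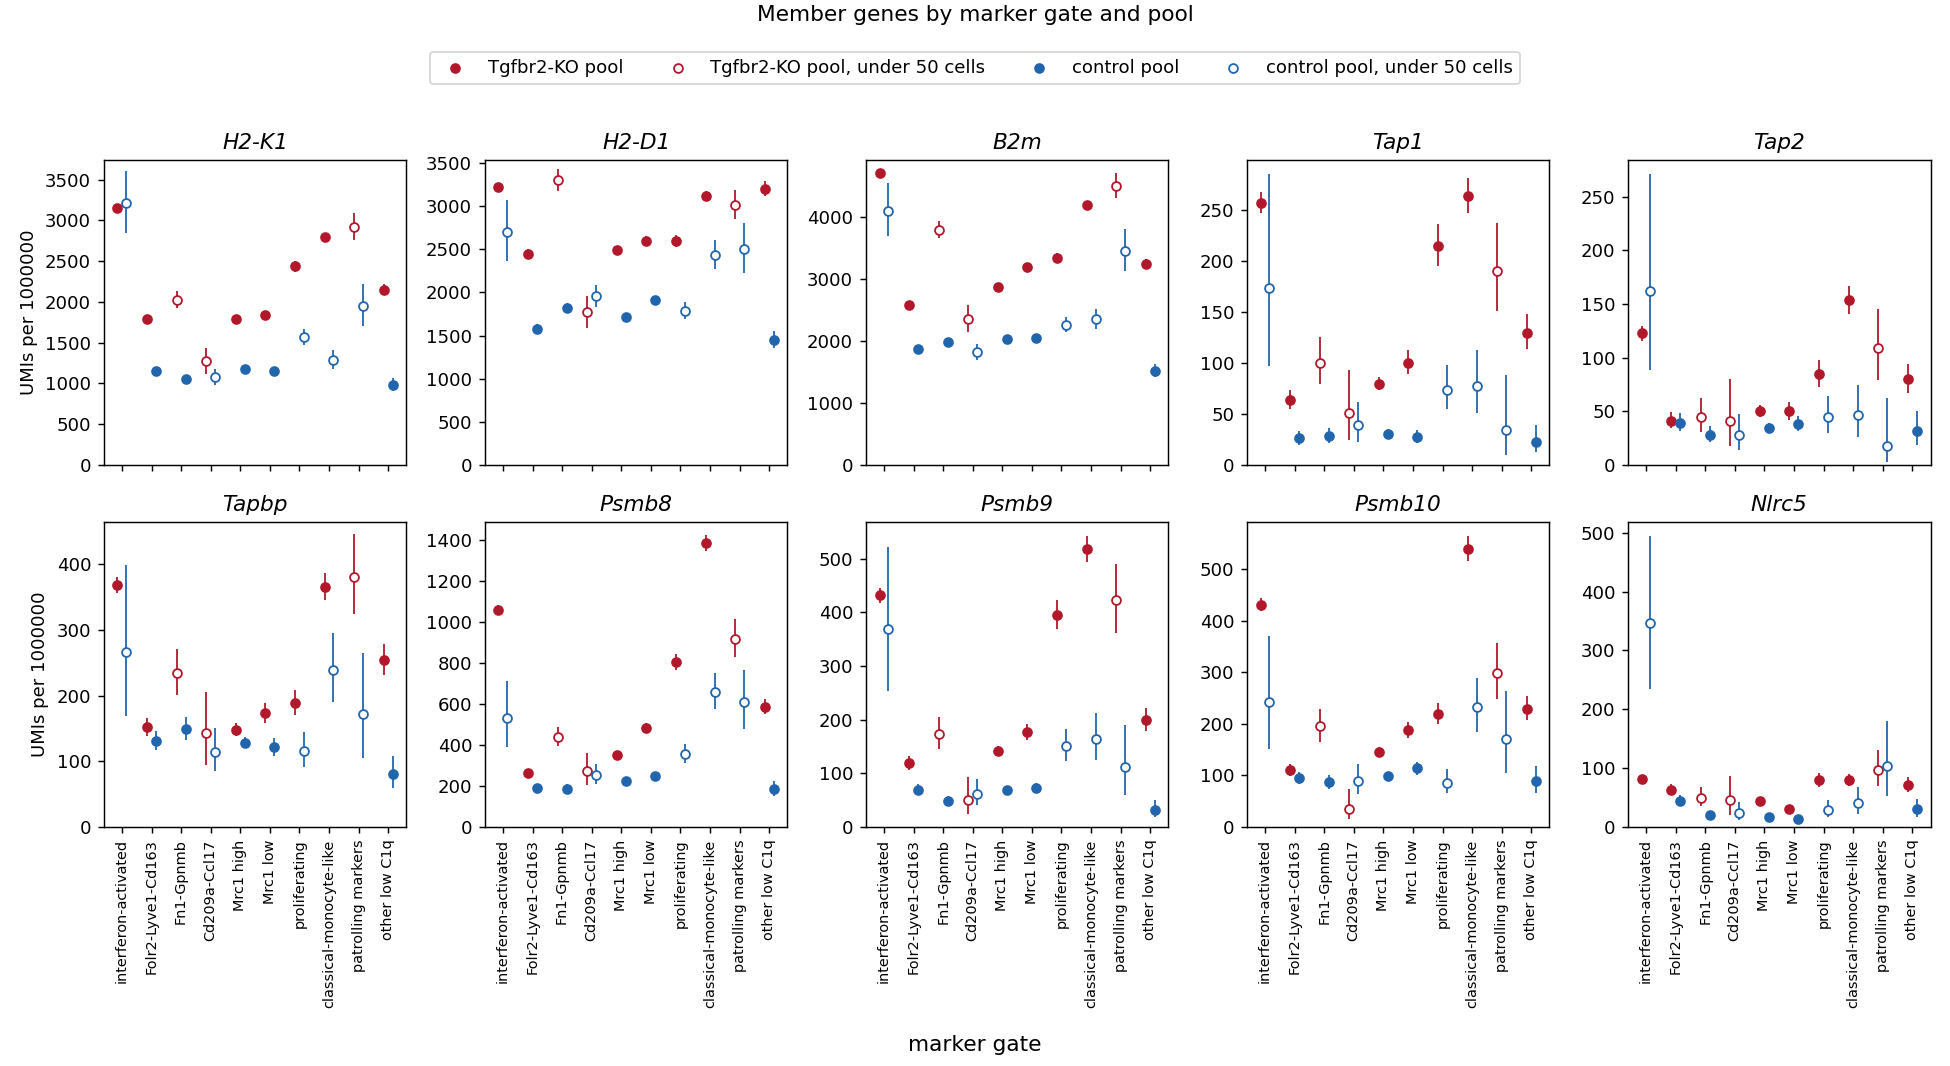
UMIs per 1000000 gene UMIs of each member gene (1 panel each, linear axes from 0) in the 10 marker gates, for the Tgfbr2-KO pool (red) and the control pool (blue), with exact 95% Poisson intervals; open points are gates with fewer than 50 cells in that pool. In the Mrc1 high and Mrc1 low gates all 10 members lie above the control value in the Tgfbr2-KO pool, and in the interferon-activated gate the 8 control cells have wide intervals.

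The other 6 gates held fewer than 50 control or Tgfbr2-KO cells, and their values are a description. In the interferon-activated gate the 626 Tgfbr2-KO cells held H2-K1 at 3150 UPM, Tap1 at 257 UPM and Psmb9 at 432 UPM, and the 8 control cells held them at 3212, 173 and 370 UPM. All 3 ratios have intervals that include 1. Psmb8 was higher in the Tgfbr2-KO cells, at 1060 UPM against 531 UPM in the control cells, with a ratio of 1.99 (1.49 to 2.72). Psmb10 at 1.78 (1.16 to 2.88), H2-D1 at 1.19 (1.05 to 1.36) and B2m at 1.15 (1.04 to 1.28) also had intervals above 1. The control values rest on 46 UMIs for Psmb8 and 21 for Psmb10, and the intervals do not cover the spread between the 8 cells. Nlrc5 stood at 81.3 UPM in the Tgfbr2-KO cells and 347 UPM (234 to 495) in the control cells, which rests on 30 UMIs in 7 of the 8 cells. In the classical-monocyte-like gate, of 307 Tgfbr2-KO cells and 45 control cells, all 10 members had a ratio above 1, from 1.28 for H2-D1 to 3.40 for Tap1. Proliferating cells, 131 Tgfbr2-KO and 48 control cells, likewise ran from 1.45 for H2-D1 to 2.92 for Tap1. In the Fn1-Gpnmb gate, of 41 Tgfbr2-KO and 145 control cells, ratios ran from 1.58 for Tapbp to 3.66 for Psmb9. In the Cd209a-Ccl17 gate, of 18 Tgfbr2-KO and 42 control cells, H2-D1, Psmb9 and Psmb10 had a ratio under 1, and that of Psmb10 was 0.401 (0.151 to 0.906), from 7 UMIs in the Tgfbr2-KO cells and 39 in the control cells. The gate set by patrolling monocyte markers, of 41 Tgfbr2-KO and 15 control cells, was led by Cldn5 and Ccr7 and is left without a name. Its ratios ran from 0.940 for Nlrc5 to 6.34 for Tap2, the last on 45 UMIs in the Tgfbr2-KO cells and 2 in the control cells.

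Within the Tgfbr2-KO pool the members' levels depended on the gate, and not to the same degree for each. Set against high-Mrc1 cells of that pool, its interferon-activated cells held 3.24-fold (2.95 to 3.56) the level of Tap1, 3.06-fold that of Psmb9, 3.04-fold that of Psmb8 and 2.96-fold that of Psmb10. For H2-D1 this was 1.29-fold, for B2m 1.64-fold and for H2-K1 1.76-fold. Classical-monocyte-like cells had the highest levels of the immunoproteasome subunits of all 10 gates in this pool, with Psmb8 at 1384 UPM, Psmb9 at 518 UPM and Psmb10 at 540 UPM. Set against high-Mrc1 cells these were 3.97-fold, 3.68-fold and 3.70-fold. Proliferating cells held Psmb9 at 2.80-fold and Tap1 at 2.71-fold but H2-D1 at 1.04-fold (1.01 to 1.08). The gates named so far held too few control cells for the same comparison. In the Tgfbr2-KO pool Folr2-Lyve1-Cd163 and low-Mrc1 cells held all members but Nlrc5 at 0.755 to 1.38 times the level of high-Mrc1 cells. In the control pool Folr2-Lyve1-Cd163, low-Mrc1 and Fn1-Gpnmb cells held all members but Nlrc5 at 0.683 to 1.16 times that level. Nlrc5 was the exception, at 44.5 UPM in Folr2-Lyve1-Cd163 cells and 16.5 UPM in high-Mrc1 cells of the control pool, 2.70-fold (2.06 to 3.55) and spread over 64 of 245 cells with a UMI.

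Cells were next placed in 6 ranges of an interferon index, the summed UMIs of 20 genes known to be induced by interferon-gamma, with no member among them, per 10000 UMIs of a cell. In the lowest range, under 2, lay 20.1% of Tgfbr2-KO cells and 59.0% of control cells. In the highest, 50 and over, lay 20.4% of Tgfbr2-KO cells and 0.211% of control cells, which are 546 Tgfbr2-KO cells and 4 control cells. All 10 members were higher in each successive range of the Tgfbr2-KO pool. The share of all genes that were is not given, so this count has no baseline. Tap1 stood at 41.3 UPM in the lowest range of that pool and 318 UPM in the highest, a 7.70-fold span (6.62 to 9.0). Psmb9 spanned 6.38-fold, Psmb8 5.44-fold, Psmb10 5.14-fold, Tap2 4.79-fold, Tapbp 3.54-fold, Nlrc5 3.43-fold, H2-K1 2.40-fold and B2m 2.10-fold. H2-D1 spanned least, 1.47-fold (1.44 to 1.51), at 2224 UPM in the lowest range and 3280 UPM in the highest. The subunits of peptide supply thus spanned more than the heavy and light chains. In the control pool, where only the first 3 ranges held 50 cells or more, the span from the lowest to the range 5 to 10 was 2.36-fold (1.69 to 3.26) for Nlrc5 and between 1.08-fold and 1.67-fold for the other 9. Over the same ranges of the Tgfbr2-KO pool Tap1 spanned 2.38-fold, Psmb9 2.14-fold and Nlrc5 1.76-fold.

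Between pools and within a range, the ratios were smaller than over all cells. In the range 0 to 2, of 537 Tgfbr2-KO cells and 1119 control cells, 2 members, Tap1 and Nlrc5, were called higher, while 3.46% of 7802 genes were, and the median fold over the 10 was 1.22. Tap1 stood at 41.3 UPM in the Tgfbr2-KO cells and 26.4 UPM in the control cells, a ratio of 1.56 (1.28 to 1.90). H2-D1, at 2224 UPM in the Tgfbr2-KO cells and 1686 UPM in the control cells, had a ratio of 1.32 (1.29 to 1.35), while Tap2 (0.978) and Tapbp (0.994) had intervals that included 1. In the range 2 to 5, of 507 Tgfbr2-KO and 560 control cells, 3 members, Tap1, Psmb9 and Nlrc5, were called higher, while 4.77% of 7188 genes were, and the median fold was 1.35. In the range 5 to 10, of 361 Tgfbr2-KO and 152 control cells, 3 members, Tap1, Psmb9 and Psmb10, were called higher, while 7.37% of 5289 genes were, and the median fold was 1.39. Tap1 there stood at 98.3 UPM in the Tgfbr2-KO cells and 37.5 UPM in the control cells, a ratio of 2.62 (1.92 to 3.66). The index genes themselves differed within a range, at 83.0, 332 and 726 UPM over the 3 ranges of the Tgfbr2-KO pool, against 75.2, 313 and 661 UPM in the control pool. Within high-Mrc1 cells alone, a comparison added after the data had been seen, the median folds were 1.21, 1.37 and 1.35. There 0, 2 and 4 members reached 1.5-fold, and the largest fold in the lowest range was 1.45. The share of all genes is not given for these counts. With ranges cut on 13 genes typical of type I interferon in place of the index, the pools differed more within a range, with median folds of 1.90, 2.31 and 3.04. The lowest of these ranges took in most cells, 1536 Tgfbr2-KO and 1607 control cells against 537 and 1119 with the index, so these ranges parted the cells less.

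**Figure D3:**
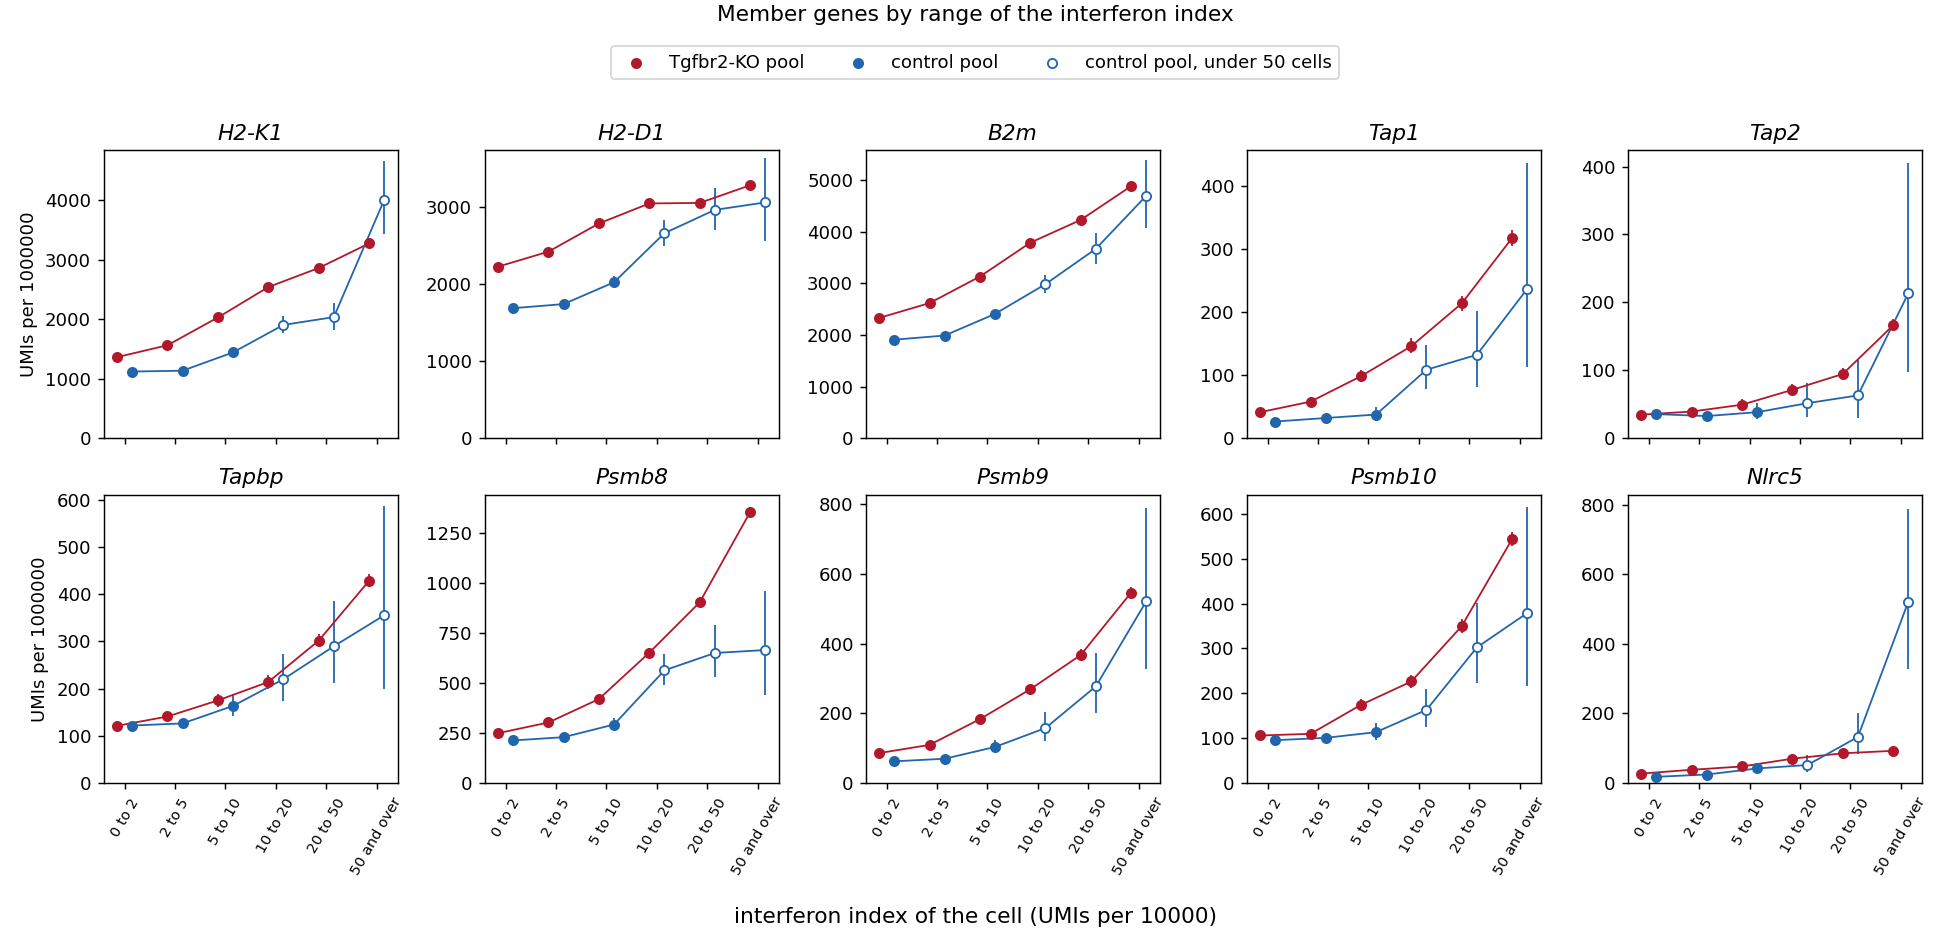
UMIs per 1000000 gene UMIs of each member gene (1 panel each, linear axes from 0) by range of the interferon index, for the Tgfbr2-KO pool (red) and the control pool (blue), with exact 95% Poisson intervals and open points under 50 cells. Every member climbs from range to range in the Tgfbr2-KO pool, by 7.70-fold for Tap1 and 1.47-fold for H2-D1 between the ends. The share of all genes that do so is not given.

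The share of an inducible subunit in the UMIs of both it and its constitutive counterpart needs no scaling between pools. Psmb8 made up 82.6% (82.2 to 83.1) of the UMIs of Psmb8 and Psmb5 in the Tgfbr2-KO pool and 70.1% (68.9 to 71.3) in the control pool. Psmb9 made up 57.3% (56.5 to 58.1) of the UMIs of Psmb9 and Psmb6 in the Tgfbr2-KO pool and 33.8% (32.2 to 35.4) in the control pool. Psmb10 made up 70.9% (70.1 to 71.7) of the UMIs of Psmb10 and Psmb7 in the Tgfbr2-KO pool and 54.7% (52.9 to 56.4) in the control pool. All 3 shares were thus larger in the Tgfbr2-KO pool, and a share of UMIs is not a share of protein. The constitutive partners were also higher there, Psmb5 by 1.54-fold, Psmb6 by 1.55-fold and Psmb7 by 1.39-fold, but by less than the inducible subunits. Within high-Mrc1 cells the shares were 76.7% and 72.8% for Psmb8, 48.2% and 35.8% for Psmb9 and 61.6% and 55.9% for Psmb10, in the Tgfbr2-KO cells and in the control cells, and these intervals do not overlap. In the interferon index range 0 to 2 the shares were 69.4% and 67.5% for Psmb8, 33.5% and 29.3% for Psmb9 and 54.4% and 52.7% for Psmb10, in the Tgfbr2-KO cells and in the control cells, and all 3 pairs of intervals overlap. H2-K1 made up 45.7% (45.4 to 45.9) of the UMIs of H2-K1 and H2-D1 in the Tgfbr2-KO pool and 40.1% (39.7 to 40.5) in the control pool. In the lowest index range its share was smaller in the Tgfbr2-KO pool, at 38.0% (37.2 to 38.7), than in the control pool, at 39.9% (39.3 to 40.5).

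**Figure D4:**
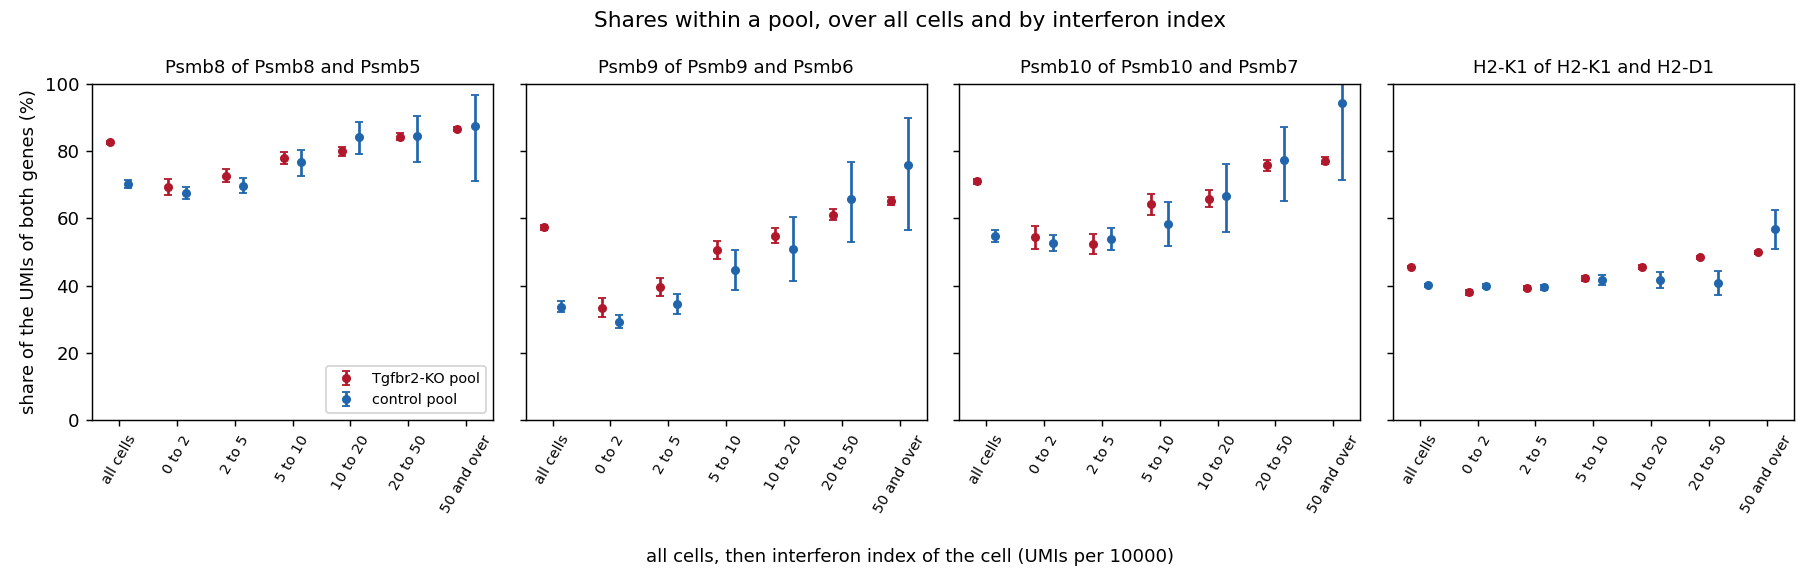
Share (%) of the first gene in the UMIs of both genes, for 3 pairs of inducible and constitutive proteasome subunits and for the heavy chains, over all cells and by interferon index, in the Tgfbr2-KO pool (red) and the control pool (blue), with exact 95% Clopper-Pearson intervals. Psmb9 stands at 57.3% in the Tgfbr2-KO pool and 33.8% in the control pool over all cells, and at 33.5% and 29.3% in their lowest range.

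Other genes of the pathway were counted from 6 lists, with 45 genes in the matrix of which 44 reached 100 UMIs and 21 were called higher over all cells, and none lower, while 11.9% of all genes at the same minimum were called higher. Of 8 other class I heavy chains with enough UMIs, 7 were called higher (median log2 ratio 1.10). Of these, H2-Q7 stood at 352 UPM in the Tgfbr2-KO pool and 106 UPM in the control pool, a ratio of 3.32, and H2-T22 at 98.6 UPM in the Tgfbr2-KO pool and 31.8 UPM in the control pool, a ratio of 3.10. H2-T24 followed at 2.67 (1.86 to 3.93), on only 181 UMIs in the Tgfbr2-KO pool and 36 in the control pool. H2-T23, which encodes the NK cell ligand Qa-1, had a ratio of 2.37, H2-Q6 of 1.95, H2-Q4 of 1.91 and H2-M3 of 1.62. H2-M2, the exception, stood at 108 UPM in the Tgfbr2-KO pool and 150 UPM in the control pool, a ratio of 0.720 (0.683 to 0.759). It was a leading gene of low-Mrc1 cells, which made up 11.9% of the Tgfbr2-KO pool and 19.7% of the control pool. Within gates its ratio was 1.07 with low Mrc1, 0.886 with high Mrc1, 0.652 in Folr2-Lyve1-Cd163 cells and 2.80 in other low-C1q cells. The part of the mix of cells in the ratio over all cells was not tested. Genes of these families are alike in sequence, with the limit on read assignment given above. H2-Q10 had too few UMIs, and H2-T10 and H2-K2 matched no row.

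Loading and trimming genes were called higher in 2 of 8, the tapasin relative Tapbpl at 2.83 and the aminopeptidase Lap3 at 2.60, and their median log2 ratio was 0.42. Canx, which encodes the chaperone calnexin, had a ratio of 0.974 (0.937 to 1.01). Both subunits of the PA28 activator of the proteasome, Psme1 at 2.62 and Psme2 at 3.96, were called higher, and Psme3, at 1.31, was not. Of the constitutive subunits and their chaperone, Psmb5, Psmb6 and Pomp (1.80), which helps to assemble the proteasome, were called higher. Without the interferon-activated gate the log2 ratios of Psmb5 (0.49), Psmb6 (0.51) and Ciita (0.45), which encodes the class II transactivator, lay under the threshold of 1.5-fold, as they did under either scaling tried. Of 14 regulators, 6 were called higher. Among them Irf1, a transcription factor of the interferon response, had a ratio of 4.20, Stat2 of 2.88, Irf8 of 2.32, Irf9 of 2.07 and Ciita of 1.55. Irf1 is also a gene of the interferon index. The factors that work with NLRC5 at class I promoters, Rfx5, Rfxap, Rfxank, Nfya, Nfyb, Nfyc and Creb1, had ratios between 0.704 and 1.42, and none was called. Of 8 MHC class II genes 2 were called higher, H2-Oa at 2.40 and Ciita, while the abundant H2-Aa, H2-Ab1, H2-Eb1 and Cd74 had ratios between 1.05 and 1.22. The median log2 ratio of the class II list was 0.24, against 1.34 for the 10 members.

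The members' patterns were compared over 12 groups of cells, each 1 gate in 1 pool with at least 50 cells. All groups share 1 library, and the correlations describe these groups. A member's Pearson r with the mean of the other 9 was between 0.92 and 0.99 for all but Nlrc5, whose r was 0.77. Of 10227 other genes, the 8 most like the mean of the members included Tgtp2 (r = 0.9951), H2-T22 (0.988), Ly6a (0.985), Zbp1 (0.984), Igtp (0.984), Cxcl9 (0.979) and Serpina3g (0.978). Tgtp2 and Igtp encode GTPases that interferon-gamma induces, and Zbp1 a nucleic acid sensor, and these 3 with Ly6a and Cxcl9 belong to the interferon index. Ly6a is also a marker of the interferon-activated gate, so its high level in that group follows in part from how the groups were made. Ranked by Spearman's rho instead, 3 of the 8 were again among the top 8, and over the groups of the control pool alone none was.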

How the data were processed

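Cell Ranger 8.0, Seurat 5.1.0 and GRCm38 are named, per the submitters' processing notes. The steps done with each, the annotation and the strand setting are not given in the sources used here. The deposited matrix is a raw UMI count table of 22597 genes by 1172636 barcodes. Per the file headers, the deposited hashtag table lists 4887 called cells with their assignment and the fraction of probability given to each state. Of 4671 cells assigned to 1 of the hashtags B0303 and B0301, 4570 were kept, with at least 1000 UMIs, 500 genes and at most 10% mitochondrial UMIs. The 96 hashtag multiplets were left out, and doublets within a hashtag stay in.

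UMIs were summed per pool, gate or index range and divided by all gene UMIs there (UPM). Intervals are Poisson for UPM, conditional binomial for ratios and Clopper-Pearson for shares. The calculations used Python 3.11.15, numpy 2.4.6 and scipy 1.17.1 and were tested on simulated data. Gates and index ranges were compared with at least 50 cells in each pool. Genes are named as all 10 members, those of the pathway lists past 1.5-fold or in a share, and the 8 most alike, and further list genes and gate markers named beside them were chosen after their values were seen. Not every gene that this rule names is reported here. The members and lists were chosen with earlier results of these data known. Other filters, scalings, depths, thresholds, cell mixes and a subtraction of free RNA were tried as alternatives.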

Additional observations from a re-analysis of the deposited data

Results flagged for a closer look

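In the interferon-activated gate Nlrc5 had a log2 ratio of -2.09 between the Tgfbr2-KO and control pools, while over all cells it had one of 1.39. The direction there was opposite to that over all cells, and the difference was not tested. It rests on 8 control cells, of which 1 holds 8 of the 30 Nlrc5 UMIs.

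In the Cd209a-Ccl17 gate Psmb10 had a log2 ratio of -1.32, against 1.497 over all cells. The gate holds 18 Tgfbr2-KO cells and 42 control cells, and the difference was not tested.

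Barcodes with fewer than 100 UMIs, 892713 of them and none a called cell, carried the 10 members at 10691.2 UPM in sum. This is near the 10833 UPM of the Tgfbr2-KO pool and above the 5599 UPM of the control pool.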

How the results depend on the processing

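No paired analysis was possible because there is 1 pool per genotype. Over all cells, 9 members kept a ratio above 1 in all 11 alternatives and Nlrc5 in 10: with control gates weighted to Tgfbr2-KO shares of UMIs its log2 ratio was -0.95. With that weighting, in which 8 control cells of the interferon-activated gate carry 30.4% of the weight for every member, 6 members fell under 1.5-fold (H2-K1 1.32, H2-D1 1.36, B2m 1.37, Tap2 1.16, Tapbp 1.43 and Nlrc5 0.517). The members' median log2 ratio of 1.34 was 0.48 with that weighting and 1.09 without the interferon-activated gate, and the cause was not tested. With free RNA taken off, at most 8.46% of UMIs in the Tgfbr2-KO pool and 1.03% in the control pool by a rule set after the data had been seen, it was 1.38. Markers of structural lung cells, tried first, allowed up to 28.4% in the Tgfbr2-KO pool and 37.4% in the control pool, which would leave Tap1, Psmb9 and Psmb10 at 0 in the control pool. Trimmed-mean scaling moved all log2 ratios by 0.07 and median-ratio scaling by 0.09. At 2-fold in place of 1.5-fold, 5 of the 8 members were called. The share of all genes called is not given at 2-fold or for the other alternatives in this section, so their counts have no baseline. Within gates the counts moved from 10 to 5 in other low-C1q cells when thinned, which leaves fewer UMIs per gene, while the median log2 ratio was 1.40 against 1.35. They moved from 4 to 2 in Folr2-Lyve1-Cd163 cells with the activated gate opened at 2.5, and from 5 to 3, 9 and 3 in high-Mrc1 cells with it opened at 2.5, at 10 and under trimmed-mean scaling, at medians of 0.50, 0.73 and 0.51 against 0.58. In low-Mrc1 cells they moved from 7 to 5 with it opened at 2.5, when thinned and under trimmed-mean scaling. With type I ranges the median log2 ratios were 0.93, 1.21 and 1.60, against 0.28, 0.43 and 0.48, but the lowest of these ranges held 1536 Tgfbr2-KO and 1607 control cells. The gap in the share of cells with Tap1 was 38.4 points without thinning and 29.7 at 5000 UMIs, against 22.4. Without the activated gate the gaps in subunit share were 10.9 points for Psmb8, 20.7 for Psmb9 and 12.8 for Psmb10, and 21.8 for Psmb9 when thinned. Of the 8 genes most like the members, 3 were again found by Spearman's rho and 0 in control groups alone. Of the other pathway genes 18 in place of 21 were called under either scaling and without the activated gate, Psmb5, Psmb6 and Ciita being lost each time. In the control pool Nlrc5, Tap1 and Tap2 rest on 401, 528 and 585 UMIs, the fewest of the 10.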
